A study of Arabidopsis thaliana with 36 samples.

Results

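Whole seedlings of the quadruple mutant hy5 pif457 were compared with whole seedlings of the hy5 mutant after 8 h of simulated shade, across every gene in the count table. The comparison took the 3 hy5 pif457 libraries and the 3 hy5 libraries at 8 h out of 36 RNA-seq libraries in 12 groups of 3. Both lines lack HY5 function by genotype, and by the labels they differ by the mutations in PIF4, PIF5 and PIF7. The comparison thus asks which transcripts differ with these 3 mutations in prolonged shade when HY5 is absent. Other differences between the lines cannot be told apart from these mutations. At chromosome segments described below, hy5 stood apart from all other lines, hy5 pif457 included. Seedlings of Arabidopsis thaliana were 7 days old, had been raised on agar without sucrose in continuous white light at 22 °C, and were moved to white light with added far-red light, which lowered the ratio of red to far-red light to about 0.02, against about 1.58 in white light, at a photosynthetically active radiation of 20 to 25 µmol per m2 per s. Further groups used here were hy5 pif457 and hy5 just before shade (0 h) and at 1 h, and pif457 and the Col-0 wild type (WT) at 8 h, again with 3 biological replicates each. No group stayed in white light until 8 h, and the labels name no allele of the mutants. The labels do not say whether replicates were grown apart, so p-values measure the spread between these samples.

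PIFs are basic helix-loop-helix (bHLH) transcription factors that bind CACGTG (the G-box) and related elements such as CACATG, and phytochromes restrain them in light rich in red. Shade inactivates phytochrome B, PIFs act, and auxin synthesis and cell elongation increase. HY5, of the bZIP class, drives photomorphogenesis and binds G-box-like elements too, so it often acts opposite to the PIFs on shared targets.

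Libraries of hy5 pif457 and hy5 at 8 h held 30846115 to 39096941 counts. Genes of ribosomal RNA took 8.16% to 8.99% of counts in hy5 pif457 and 0.584% to 1.197% in hy5, a difference that cannot be told apart from genotype. The share also followed the serial numbers in the column names. It was 0.467% to 2.63% in all libraries up to pif457 at 1 h, those of hy5 included. From pif457 at 8 h on, all hy5 pif457 libraries included, it was 6.01% to 11.6%. What these numbers stand for is not stated, and their order cannot be told apart from genotype in this comparison. With that share as a covariate, 79 genes passed at 8 h and 115 at 0 h, where the share was 7.95% to 10.1% in hy5 pif457 and 0.605% to 0.720% in hy5. The share did not overlap between the lines at either time, so this fit cannot separate it from genotype. That holds for calls lost and for signs turned with it alike. The part of the ribosomal RNA share in the results was not tested beyond this covariate. Averaged over 26 root marker genes, log2 CPM (CPM being counts scaled to library size) gave a root marker score of 1.68, 2.14 and 1.71 in hy5 pif457 and 2.89, 3.18 and 2.73 in hy5 at 8 h, without overlap. Fewer cells of a type and less RNA per cell cannot be told apart in whole seedlings. The libraries of hy5 at 8 h were less alike than those of hy5 pif457: replicate 2 differed from replicates 1 and 3 with a chi-square per degree of freedom of 110.0 and 113.0, against 27.8 between those replicates, while the 3 hy5 pif457 libraries lay at 4.03 to 22.7 from each other.

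At 8 h, 5104 of 21562 tested genes differed between hy5 pif457 and hy5 at an adjusted p under 0.05 (23.7%), 2487 higher (11.5%) and 2617 lower (12.1%) in hy5 pif457. Larger changes were more often downward, with 252 genes higher and 555 lower by at least 2-fold. Of the 252, 205 were nuclear genes with an upstream sequence, as were all 555 lower ones. The median log2 fold change of all tested genes was -0.03. The count was 1839 without hy5 replicate 2, 2392 without hy5 pif457 replicate 1 and 2461 without hy5 pif457 replicate 3. Leaving out each of the 6 libraries in turn kept 588 higher (2.73%) and 840 lower calls (3.9%), and such calls are termed stable below, a word that refers to the left-out libraries alone. With the root marker score as a covariate 3004 genes passed, and 1426 of the 1428 stable calls were among them. The libraries of hy5 pif457 lay above those of hy5 without overlap at 18.4% of tested genes and below them at 22.7%.

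**Figure D1:**
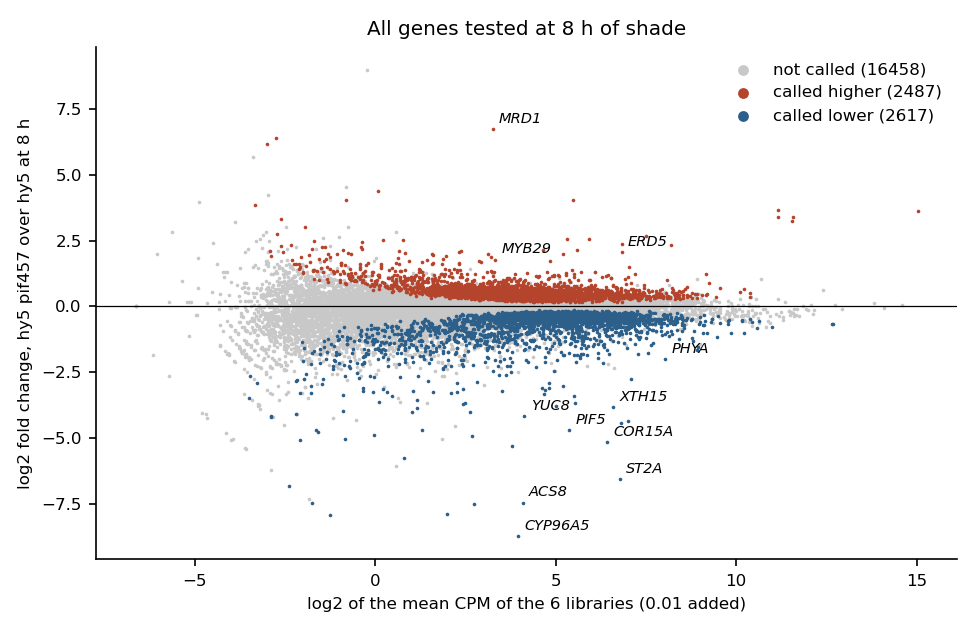
Each point is 1 of 21562 tested genes, with the log2 of its mean CPM over the 6 libraries on the x axis and the log2 fold change of hy5 pif457 over hy5 at 8 h on the y axis. Red points are the 2487 genes called higher, blue points the 2617 called lower and grey points the rest, and the labelled genes run from CYP96A5 at -8.73 to MRD1 at 6.76.

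The mutated genes served as a check of the labels. PIF5 (AT3G59060) had 3.68, 3.44 and 2.04 CPM in hy5 pif457, against 69.2, 102 and 69.6 CPM in hy5 (log2 fold change -4.71 ± 0.25 (SE, n = 3 each), edgeR adjusted p = 1.55e-13). PIF7 (AT5G61270) had 3.37, 2.69 and 3.22 CPM in hy5 pif457, against 13.7, 13.4 and 12.9 CPM in hy5 (-2.11 ± 0.24, adjusted p = 4.77e-07). Both groups of libraries were apart for both genes, in the direction of the genotype. PIF4 (AT2G43010) kept most of its transcript, with 53.8, 45.1 and 53.7 CPM in hy5 pif457, against 75.6, 73.9 and 76.9 CPM in hy5 (-0.57 ± 0.20, adjusted p = 0.0387). That call was lost whichever library was left out (adjusted p between 0.0714 without hy5 replicate 1 and 0.137 without hy5 pif457 replicate 2), and a transcript count does not show whether protein is made. HY5 (AT5G11260), mutated in both lines, was low in both at 4.38, 4.38 and 3.96 CPM in hy5 pif457 and 5.66, 6.03 and 4.41 CPM in hy5 (-0.34 ± 0.14, adjusted p = 0.0765). Of the PIF genes that are intact here, PIF1 and PIF3 did not pass (0.28 and -0.14) and PIF6 fell (-1.96 ± 0.38, adjusted p = 0.000801), though it shares 83.7% of its stretches with other genes. UNE10 (PIF8) was called lower (-0.41 ± 0.15, adjusted p = 0.0434) and lost the call whichever library was left out (adjusted p between 0.0595 without hy5 pif457 replicate 3 and 0.205 without hy5 pif457 replicate 2). HYH, the closest relative of HY5, did not pass (-0.38, adjusted p = 0.322).

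Stable genes were ranked by fold among those with a symbol of their own in the RefSeq annotation and no overlap between groups. The log2 of their mean CPM over the 6 libraries had to be at least 2. A gene can meet that level through the group where it is high. The 15 lowest were CYP96A5, ACS8, ST2A, COR15A, FLP1, PIF5, FAR1, YUC8, YUC9, XTH15, HFR1, XTH33, GH3.3, ADS1 and IAA29. CYP96A5 (AT2G21910), which encodes a cytochrome P450, had 0.215, 0 and 0 CPM in hy5 pif457, against 15.99, 51.0 and 25.7 CPM in hy5. Of the 3 hy5 pif457 libraries, 2 held no count of it. ST2A (AT5G07010), the sulfotransferase gene of the jasmonate pathway that acts on hydroxyjasmonate, had 3.16, 2.28 and 1.34 CPM in hy5 pif457, against 144, 344 and 164 CPM in hy5 (log2 fold change -6.58 ± 0.58 (SE, n = 3 each), edgeR adjusted p = 8.09e-09). FAR1 (AT5G22500), here the gene of a fatty acyl reductase that makes fatty alcohols and not the light signalling gene of that symbol, had 11.5, 13.4 and 10.9 CPM in hy5 pif457, against 147, 386 and 201 CPM in hy5 (-4.36 ± 0.28, adjusted p = 1.51e-11). In hy5, replicate 2 was the highest of the 3 libraries for each of these genes, and the other replicates still lay many times above every hy5 pif457 library. ADS1 (AT1G06080), an acyl-lipid desaturase gene, had a log2 fold change of -3.41 ± 0.23 and FLP1 (AT4G31380), a small gene of the flowering-promoting FPF1 family, of -4.92 ± 0.47.

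The highest folds were smaller. MRD1 (AT1G53480) stood apart with 17.8, 19.9 and 18.9 CPM in hy5 pif457, against 0.169, 0.0891 and 0.241 CPM in hy5 (6.76 ± 0.45, adjusted p = 1.96e-11). It shares 89.5% of its 50-base stretches with other genes, so its level is uncertain. MRD1, FAR1, XTH15, PIF7, PIF6, CKX5, POLAR, JAZ10, COR15B, CHS and HEI10 also overlap an antisense gene, and without a stated strand setting reads of such partners cannot be told apart. ERD5 (AT3G30775), the gene of a proline dehydrogenase that degrades proline, had 171, 181 and 199 CPM in hy5 pif457, against 59.9, 30.9 and 40.0 CPM in hy5 (2.07 ± 0.25, adjusted p = 1.72e-06). MYB29 (AT5G07690), a transcription factor of aliphatic glucosinolate synthesis, had 14.1, 14.4 and 17.8 CPM in hy5 pif457, against 4.91, 3.89 and 4.67 CPM in hy5 (1.78 ± 0.37, adjusted p = 0.0018). The other 12 of the 15 highest stable genes under the same limits were BASL, GSTF11, CIL, BAT5, EPF2, SIP2, PRIN2, LSH3, FP3, CDC20.2, CDC20.1 and UGT85A1, with log2 fold changes between 1.104 and 1.39. With the ribosomal RNA share as a covariate the sign turned at GSTF11 (-0.0643), FP3 (-0.49), CDC20.2 (-0.19) and CDC20.1 (-0.0179). POLAR, described below, has its name only as a synonym in that annotation and so was not ranked. CDC20.1 and CDC20.2 encode activators of the anaphase-promoting complex and share 31.4% and 34.0% of their stretches, and GSTF11 shares 89.3%, so reads may have been split between copies.

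The 250 bases upstream of the genes were read from the TAIR10.1 assembly and searched on both strands for CACGTG, which reads the same on both strands, and for CACATG. Among the 555 genes lower by at least 2-fold, 43 held CACGTG (7.75%), close to the 7.29% of all tested genes with an upstream sequence (1563 of 21430). CACATG stood upstream of 107 of these 555 genes (19.3%), against 11.3% of all tested genes, and upstream of 26 of the 205 nuclear genes higher by at least 2-fold (12.7%). Of the 15 lowest genes above, 7 held one of these words, 2 CACGTG and 5 CACATG, and of the 15 highest, 1 held CACGTG and 3 CACATG. A match is a description of the letters and no evidence of binding. PIF5, 1 of the 2 lowest genes with CACGTG, is itself mutated in hy5 pif457, so its low level cannot be told apart from that mutation. The first 6 of those lowest genes with a match are printed because they are the strongest changes that carry the words PIFs are known to bind, each 5′ to 3′ on the strand of the gene with the word in capitals. They are ACS8 at chr4:17751829-17752078 (plus strand), COR15A at chr2:17712331-17712580 (minus), PIF5 at chr3:21830838-21831087 (minus), YUC8 at chr4:14192319-14192568 (plus), YUC9 at chr1:1104243-1104492 (plus) and XTH33 at chr1:3481042-3481291 (minus).
ACS8: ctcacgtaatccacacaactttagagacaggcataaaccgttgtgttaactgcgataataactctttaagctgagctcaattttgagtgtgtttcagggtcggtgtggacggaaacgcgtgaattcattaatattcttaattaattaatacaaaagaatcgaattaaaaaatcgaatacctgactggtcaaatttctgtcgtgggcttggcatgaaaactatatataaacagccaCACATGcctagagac
COR15A: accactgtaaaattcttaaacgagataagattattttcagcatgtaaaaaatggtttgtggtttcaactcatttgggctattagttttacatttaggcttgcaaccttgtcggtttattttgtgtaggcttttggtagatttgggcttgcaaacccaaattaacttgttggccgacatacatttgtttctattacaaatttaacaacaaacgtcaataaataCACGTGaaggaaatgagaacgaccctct
PIF5: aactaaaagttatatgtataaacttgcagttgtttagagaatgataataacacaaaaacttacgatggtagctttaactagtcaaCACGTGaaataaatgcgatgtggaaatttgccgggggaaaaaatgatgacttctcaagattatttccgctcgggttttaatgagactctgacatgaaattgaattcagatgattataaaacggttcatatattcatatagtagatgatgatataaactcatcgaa
YUC8: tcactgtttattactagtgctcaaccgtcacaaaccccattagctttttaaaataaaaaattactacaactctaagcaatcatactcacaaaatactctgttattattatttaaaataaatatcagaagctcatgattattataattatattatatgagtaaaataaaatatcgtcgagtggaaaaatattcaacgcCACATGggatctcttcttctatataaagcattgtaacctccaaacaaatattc
YUC9: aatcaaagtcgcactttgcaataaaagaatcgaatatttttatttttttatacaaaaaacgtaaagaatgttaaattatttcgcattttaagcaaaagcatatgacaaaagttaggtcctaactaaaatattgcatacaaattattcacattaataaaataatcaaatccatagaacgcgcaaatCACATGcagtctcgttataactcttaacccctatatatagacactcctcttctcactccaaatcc
XTH33: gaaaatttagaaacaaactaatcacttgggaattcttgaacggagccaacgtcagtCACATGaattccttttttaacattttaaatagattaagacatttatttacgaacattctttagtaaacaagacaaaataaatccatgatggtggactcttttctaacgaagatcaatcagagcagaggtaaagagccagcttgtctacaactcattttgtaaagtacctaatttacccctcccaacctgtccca

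Among regulators of the shade response with a helix-loop-helix domain, 9 of 17 tested genes fell in hy5 pif457 and none rose. Their median log2 fold change was -0.89, against -0.03 for all genes, and 8 of the 9 calls were stable. Counts in this and the following gene lists stand beside 11.5% of all tested genes called higher, 12.1% called lower, 2.73% with a stable higher and 3.9% with a stable lower call, and a share near these is no result about a list. Of the 192 calls in all gene lists described here, 11 passed with the ribosomal RNA share as a covariate. HFR1 (AT1G02340), an atypical bHLH protein that binds PIFs and limits the response, had 5.67, 4.03 and 3.41 CPM in hy5 pif457, against 47.5, 83.5 and 49.5 CPM in hy5 (-3.78 ± 0.33, adjusted p = 5.46e-09). PIL1 (AT2G46970), an early shade marker of the same group, had 6.87, 4.86 and 5.77 CPM in hy5 pif457, against 31.7, 80.3 and 39.2 CPM in hy5 (-3.11 ± 0.31, adjusted p = 6.42e-08). In both cases the lowest hy5 library was several times the highest hy5 pif457 library. The growth-repressing factors PAR1 (-0.91 ± 0.17) and PAR2 (-1.13 ± 0.16) fell, as did IBH1 (-0.89 ± 0.18, but 0.0299 with the ribosomal RNA covariate), which restrains growth, and the growth-promoting PRE5 (-3.21 ± 0.37), PRE6 (-1.17 ± 0.15) and BEE1 (-1.66 ± 0.35). PRE2 (-0.82 ± 0.20) fell as well, without a call when hy5 replicate 2 was left out (adjusted p = 0.0616). BEE2 (-0.35), BEE3 (0.07), BIM1 (-0.24), HBI1 (-0.18), AIF1 (0.10), PRE1 (-0.49), PRE4 (-0.89) and CIB1 (-0.15) did not pass.

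Of the 10 HD-ZIP II genes, which encode homeodomain-leucine zipper factors, 3 fell and none rose. ATHB2 (AT4G16780), the classic transcript induced by low red to far-red light, had 21.7, 17.1 and 21.0 CPM in hy5 pif457, against 65.6, 89.8 and 59.7 CPM in hy5 (-1.85 ± 0.14, adjusted p = 2.72e-10). HAT2 (AT5G47370) had 16.3, 15.4 and 18.6 CPM in hy5 pif457, against 40.6, 55.8 and 37.3 CPM in hy5 (-1.41 ± 0.17, adjusted p = 2.12e-06). HAT1 was called with a small difference (-0.29 ± 0.08, adjusted p = 0.014) that did not pass without hy5 replicate 1 (adjusted p = 0.154) or hy5 pif457 replicate 2 (0.114). The other 7 had log2 fold changes between -0.45 and 0.23.

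Auxin synthesis through tryptophan runs from TAA1 and its relatives to the YUCCA flavin monooxygenases, and its genes moved in both directions. Of 10 tested, 4 YUCCA genes fell and TAA1 rose. YUC8 (AT4G28720) had 2.15, 1.69 and 1.66 CPM in hy5 pif457, against 25.8, 51.1 and 22.8 CPM in hy5 (-4.18 ± 0.37, adjusted p = 7.92e-09). YUC9 (AT1G04180) had 0.889, 0.618 and 0.606 CPM in hy5 pif457, against 9.56, 16.04 and 9.01 CPM in hy5 (-4.03 ± 0.41, adjusted p = 1.15e-07). YUC8 and YUC9 were low in every hy5 pif457 library. Both are among the 15 lowest genes, for which a lack of overlap with hy5 was a condition. YUC2 (AT4G13260) had 4.11, 3.46 and 4.24 CPM in hy5 pif457, against 10.04, 13.5 and 9.34 CPM in hy5 (-1.48 ± 0.21, adjusted p = 1.59e-05). YUC3 (-1.41 ± 0.52, adjusted p = 0.0484) lost its call whichever library was left out (adjusted p between 0.0663 without hy5 pif457 replicate 2 and 0.166 without hy5 pif457 replicate 1). TAA1 (AT1G70560), the aminotransferase gene at the head of the pathway, had 17.1, 18.6 and 17.8 CPM in hy5 pif457, against 9.34, 7.31 and 10.8 CPM in hy5 (0.96 ± 0.13, adjusted p = 9.32e-06), a stable call. YUC1, YUC4, YUC5, YUC6 and TAR2 did not pass, with log2 fold changes between -0.74 and 1.17.

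Auxin transport genes fell at 7 of 13 and none rose (median -0.55, 6 stable). PIN3 (AT1G70940), an efflux carrier needed for the elongation response to shade, had 92.0, 96.3 and 89.7 CPM in hy5 pif457, against 174, 285 and 205 CPM in hy5 (-1.26 ± 0.16, adjusted p = 4.37e-06). The efflux carrier genes PIN4 (-1.003 ± 0.15) and PIN7 (-0.69 ± 0.15) fell less, as did ABCB19 (-0.88 ± 0.12) and ABCB1 (-0.55 ± 0.10).

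In each family of auxin response genes more members fell than rose. Among Aux/IAA genes, whose products repress auxin response and are themselves induced by auxin, 18 of 28 fell and none rose (median -0.64, 13 stable, 14 lower without hy5 replicate 2). IAA29 (AT4G32280) had 5.98, 3.169 and 4.78 CPM in hy5 pif457, against 43.2, 54.4 and 41.0 CPM in hy5 (-3.32 ± 0.29, adjusted p = 7.92e-09). IAA19 (AT3G15540) had 6.90, 3.87 and 4.72 CPM in hy5 pif457, against 44.3, 50.9 and 36.7 CPM in hy5 (-3.09 ± 0.31, adjusted p = 8.49e-08). IAA34 (-4.03 ± 0.49), IAA2 (-1.64 ± 0.20) and IAA14 (-1.30 ± 0.15) fell too. All 6 tested GH3 genes, which encode enzymes that join auxin to amino acids, fell (median -1.31), and 4 calls were stable. GH3.3 (AT2G23170) had 6.81, 7.33 and 6.25 CPM in hy5 pif457, against 34.3, 181 and 43.4 CPM in hy5 (-3.66 ± 0.39, adjusted p = 2.48e-07), and its hy5 values ranged widely, with replicate 2 the highest. GH3.5 (AT4G27260) was more even, with 26.5, 28.4 and 22.3 CPM in hy5 pif457, against 83.7, 91.8 and 99.7 CPM in hy5 (-1.83 ± 0.19, adjusted p = 1.32e-07). Of 67 SAUR genes, small auxin-induced growth genes, 26 fell and 3 rose (median -0.51). Of these, 19 lower calls and none of the higher ones were stable. The lowest adjusted p values were those of SAUR10 (-3.23 ± 0.37), SAUR22 (-2.13 ± 0.26), SAUR23 (-2.05 ± 0.26), SAUR28 (-2.11 ± 0.29) and the SAUR21 gene AT5G18030 (-1.72 ± 0.25).

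**Figure D2:**
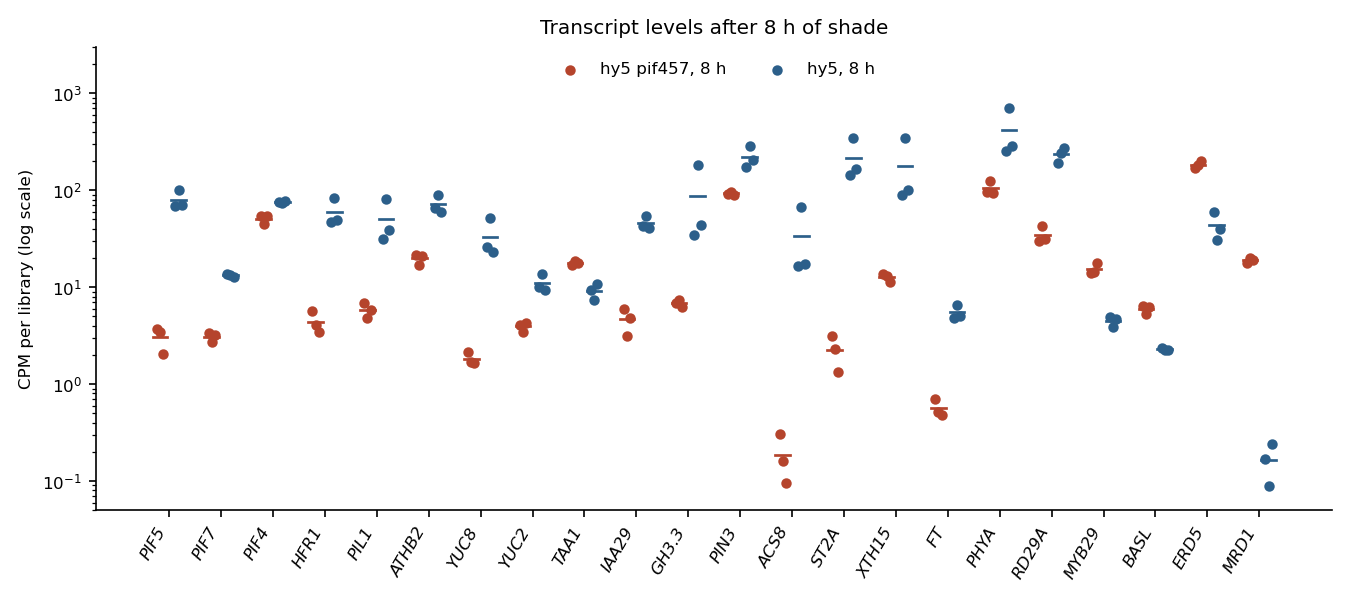
CPM per library on a log axis at 8 h of shade for 22 genes, with hy5 pif457 (red, left) and hy5 (blue, right), each point a library and each bar the mean of 3. PIF5, YUC8, ACS8 and ST2A lie far lower in hy5 pif457, PIF4 only slightly lower, and TAA1, MYB29, BASL, ERD5 and MRD1 higher, and hy5 replicate 2 lies above the other hy5 libraries at several genes.

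Ethylene synthesis genes fell at 5 of 13, and none rose. ACS enzymes make the ethylene precursor and ACO enzymes turn it into ethylene. ACS8 (AT4G37770) had 0.307, 0.161 and 0.0957 CPM in hy5 pif457, against 16.6, 67.3 and 17.37 CPM in hy5 (-7.46 ± 0.79, adjusted p = 1.83e-07). ACS4 (-4.70 ± 0.57) and ACO4 (-0.92 ± 0.19) had stable calls, though the sign turned at ACO4 (0.0697) with the ribosomal RNA share as a covariate, while ACS5 (-2.15 ± 0.64) did not pass without hy5 replicate 2 (adjusted p = 0.0556), hy5 pif457 replicate 1 (0.0513) or hy5 pif457 replicate 3 (0.0916). In the gibberellin list 6 of 18 fell and none rose. Genes of synthesis and of inactivation were both among them. GA20OX1 (-2.66 ± 0.40, adjusted p = 4.11e-05) and GA20OX2 (-1.71 ± 0.29, adjusted p = 0.000195) encode synthesis enzymes. GA2OX6 (AT1G02400), the gene of an inactivating enzyme, had 2.21, 1.80 and 2.52 CPM in hy5 pif457, against 14.6, 32.8 and 13.9 CPM in hy5 (-3.23 ± 0.35, adjusted p = 2.67e-07). The DELLA repressor gene GAI fell slightly (-0.52 ± 0.11, adjusted p = 0.00184).

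Brassinosteroid genes showed 4 lower and 1 higher of 13. The receptor gene BRI1 (-0.63 ± 0.11), the synthesis gene BR6OX2 (-0.86 ± 0.15) and the inactivating enzyme gene BAS1 (-0.84 ± 0.15) had stable lower calls. CPD (-0.47 ± 0.16) lost its call without hy5 replicate 2 (adjusted p = 0.457) and without each hy5 pif457 replicate in turn (0.0979, 0.0876 and 0.145 for replicates 1, 2 and 3), and its log2 fold change was 0.058 with the ribosomal RNA covariate. BES1, the higher gene (0.52 ± 0.14), lost its call without hy5 replicate 2 (adjusted p = 0.0918). In the cytokinin list more genes rose than fell, with 7 higher and 2 lower of 16 (median 0.39). The higher ones included type-A response regulators, which cytokinin induces and which dampen its signal. ARR4 (AT1G10470) had 53.9, 50.9 and 60.9 CPM in hy5 pif457, against 33.5, 21.2 and 28.2 CPM in hy5 (0.999 ± 0.14, adjusted p = 1.09e-05). ARR16 (1.61 ± 0.38), ARR15 (1.61 ± 0.39) and ARR9 (0.54 ± 0.12) also rose with stable calls, though with the ribosomal RNA covariate ARR16 was at -0.21. ARR3 (-0.03), ARR5 (0.04) and ARR8 (0.56), of the same type, did not pass. CKX5 (AT1G75450), a cytokinin oxidase gene, had 3.31, 3.22 and 3.86 CPM in hy5 pif457, against 22.4, 23.2 and 17.9 CPM in hy5 (-2.61 ± 0.32, adjusted p = 2.21e-06). In the jasmonate list 5 of 27 fell and 2 rose, beside 12.1% lower and 11.5% higher of all tested genes. Beside ST2A, the synthesis gene AOC4 (-0.89 ± 0.12) and the conjugating enzyme gene JAR1 (-0.54 ± 0.12) fell, and the repressor gene JAZ10 rose (0.96 ± 0.23).

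In both cell wall families more genes fell than rose. Of 29 XTH genes, which encode xyloglucan-modifying enzymes, 10 fell and 1 rose (median -0.97, 8 lower calls stable). XTH15 (AT4G14130) had 13.8, 12.9 and 11.3 CPM in hy5 pif457, against 90.0, 347 and 100.4 CPM in hy5 (-3.82 ± 0.36, adjusted p = 3.15e-08), and shares 28.8% of its stretches with other genes. XTH17 (AT1G65310) had 5.21, 5.24 and 5.17 CPM in hy5 pif457, against 49.6, 35.3 and 55.2 CPM in hy5 (-3.165 ± 0.48, adjusted p = 4.2e-05). The hy5 pif457 libraries agreed closely at XTH17, and the lowest hy5 library was far above them. XTH33 (-3.72 ± 0.58), XTH8 (-1.21 ± 0.13) and XTH23 (-2.01 ± 0.37) fell as well. Of 26 expansin genes, whose proteins loosen walls, 6 fell and none rose (median -0.67, all 6 stable), among them EXPA11 (-1.29 ± 0.17), EXPA8 (-1.23 ± 0.25) and EXPA3 (-0.86 ± 0.10). With the root marker score as a covariate, 10 XTH genes and 7 expansin genes were lower.

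Light receptor and signalling genes fell at 8 of 31 and none rose, with 3 stable calls. PHYA (AT1G09570), the photoreceptor that counters shade responses in deep shade, had 96.1, 126 and 92.5 CPM in hy5 pif457, against 257, 706 and 289 CPM in hy5 (-1.99 ± 0.25, adjusted p = 3.07e-06). PHYB (AT2G18790), the main shade receptor, had 91.6, 111 and 96.5 CPM in hy5 pif457, against 180.4, 282 and 202 CPM in hy5 (-1.15 ± 0.15, adjusted p = 3.07e-06). The ultraviolet-B receptor gene UVR8 fell less (-0.47 ± 0.07). Of 20 B-box (BBX) genes 4 fell, with stable calls at BBX23 (-3.99 ± 0.73) and BBX21 (-0.99 ± 0.23, but 0.25 with the ribosomal RNA covariate). Among 28 clock genes, CDF5 (-1.27 ± 0.15) had the one stable call. LHY was called lower (-1.33 ± 0.45) but only hy5 replicate 2 lay above hy5 pif457: it had 27.8, 26.3 and 28.4 CPM in hy5 pif457, against 23.9, 163 and 21.7 CPM in hy5, and its log2 fold change was 0.29 (adjusted p = 0.519) without hy5 replicate 2. The call was also lost without hy5 pif457 replicate 1 (0.0942), 2 (0.0785) or 3 (0.0902). FT (AT1G65480), the mobile flowering signal, had 0.705, 0.510 and 0.478 CPM in hy5 pif457, against 4.84, 6.54 and 5.06 CPM in hy5 (-3.27 ± 0.40, adjusted p = 2.33e-06), within 2 lower and 1 higher of 16 flowering genes.

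Cold and drought genes fell at 6 of 18, with none higher, and all 6 calls were stable. RD29A (AT5G52310) had 29.9, 42.3 and 31.2 CPM in hy5 pif457, against 193, 244 and 269 CPM in hy5 (-2.77 ± 0.45, adjusted p = 9.51e-05). COR15A (AT2G42540), the gene of a protective protein of the chloroplast, had 4.32, 4.86 and 4.91 CPM in hy5 pif457, against 182, 39.7 and 279 CPM in hy5 (-5.15 ± 1.14, adjusted p = 0.00262), and hy5 replicate 2 was the lowest hy5 library here. GOLS3 (-3.24 ± 0.64), COR15B (-3.03 ± 0.72) and ERD10 (-1.13 ± 0.25) were others of the 6.

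Of 25 aliphatic glucosinolate genes 6 rose and 3 fell (median 0.39, 4 higher calls stable). The share that fell is near the 12.1% of all tested genes, and none of these lower calls was stable. With MYB29, the regulator MYB76 (2.44 ± 0.54, adjusted p = 0.0028) and the plastid transporter gene BAT5 (1.24 ± 0.27, adjusted p = 0.00222) rose. Indole glucosinolate genes had 2 lower of 9, neither stable. Of 28 flavonoid genes 4 were called lower, a share near the 12.1% of all tested genes, and none of these calls was stable. CHS, the entry enzyme of the pathway, had 43.1, 44.6 and 43.6 CPM in hy5 pif457, against 71.1, 196 and 87.3 CPM in hy5 (-1.43 ± 0.41, adjusted p = 0.0141, but 0.183 without hy5 replicate 2, 0.0524 without hy5 pif457 replicate 1 and 0.0512 without hy5 pif457 replicate 3). No photosynthesis gene of 43 passed in either direction in edgeR (0 higher and 2 lower at an unadjusted p under 0.05, and 0 higher and 0 lower in DESeq2). Their summed level was 143255 to 160055 CPM in hy5 pif457 and 127978 to 205457 CPM in hy5, so the hy5 libraries spanned those of hy5 pif457.

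Stomatal lineage markers were higher at 5 of 11 and lower at 1 (median 0.63), with 3 of the higher calls and the lower one stable. BASL (AT5G60880), a polarity protein of asymmetric division, had 6.41, 5.26 and 6.25 CPM in hy5 pif457, against 2.35, 2.23 and 2.26 CPM in hy5 (1.39 ± 0.26, adjusted p = 0.000532). POLAR (AT4G31805), its partner, had 11.7, 12.6 and 12.3 CPM in hy5 pif457, against 5.13, 4.04 and 5.44 CPM in hy5 (1.32 ± 0.21, adjusted p = 0.000109). EPF2 (1.23 ± 0.26), a peptide that limits stomatal number, rose with a stable call, and the guard cell channel gene KAT1 fell (-1.49 ± 0.20). The 11 markers together summed to 126 to 128 CPM in hy5 pif457 and 113 to 132 CPM in hy5, with overlap. Averaged as log2 CPM, so that each marker weighs alike, they gave 3.12, 3.14 and 3.09 in hy5 pif457, against 2.48, 2.48 and 2.78 in hy5, without overlap. Of the 26 root markers, 2 were called lower (ESB1 and SCR, neither of which passed without hy5 replicate 2, with adjusted p values of 0.194 and 0.14, or without hy5 pif457 replicate 1 or 3) and 21 lay below hy5 without overlap, as did 22.7% of all tested genes. ESB1 was at 0.60 with the ribosomal RNA covariate. The median log2 fold change of the 26 root markers was -1.27. Their summed level was 1352 to 1489 CPM in hy5 pif457 and 1524 to 2397 CPM in hy5. The part of root tissue in the results was not tested beyond the covariate.

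In the remaining lists the counts again stand beside 12.1% lower and 11.5% higher of all tested genes. Chlorophyll genes had 2 lower of 18 and carotenoid genes 3 lower of 19, none stable. The salicylate and immunity list had none called of 15 in edgeR (0 higher and 2 lower at an unadjusted p under 0.05, and 0 higher and 0 lower in DESeq2). Dark and starvation genes had 2 higher of 21, BZIP63 (0.79 ± 0.17) with a stable call and DIN4 (0.33 ± 0.10), which did not pass without hy5 replicate 3 (adjusted p = 0.1) or hy5 pif457 replicate 1 (0.0733). One gene each was lower among 10 heat shock, 11 touch and wound, 22 iron and 7 nitrate genes, which were ATHSP22.0, TCH4 (-1.28 ± 0.30), MYB10 (-2.25 ± 0.29) and NRT1.1 (-0.77 ± 0.17). ATHSP22.0 had no counts in the 3 hy5 pif457 libraries and 0.339, 0.148 and 0.602 CPM in hy5. Among 18 cell cycle genes the cyclin genes CYCD3;3 (0.57 ± 0.13) and CYCD3;1 (0.79 ± 0.25) were higher and MCM2 and CYCB1;1 lower, both within chromosome segments described below. CYCD3;1 did not pass without hy5 replicate 2 (adjusted p = 0.153), hy5 pif457 replicate 1 (0.055) or hy5 pif457 replicate 3 (0.0694), and was at -0.48 with the ribosomal RNA covariate.

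**Figure D3:**
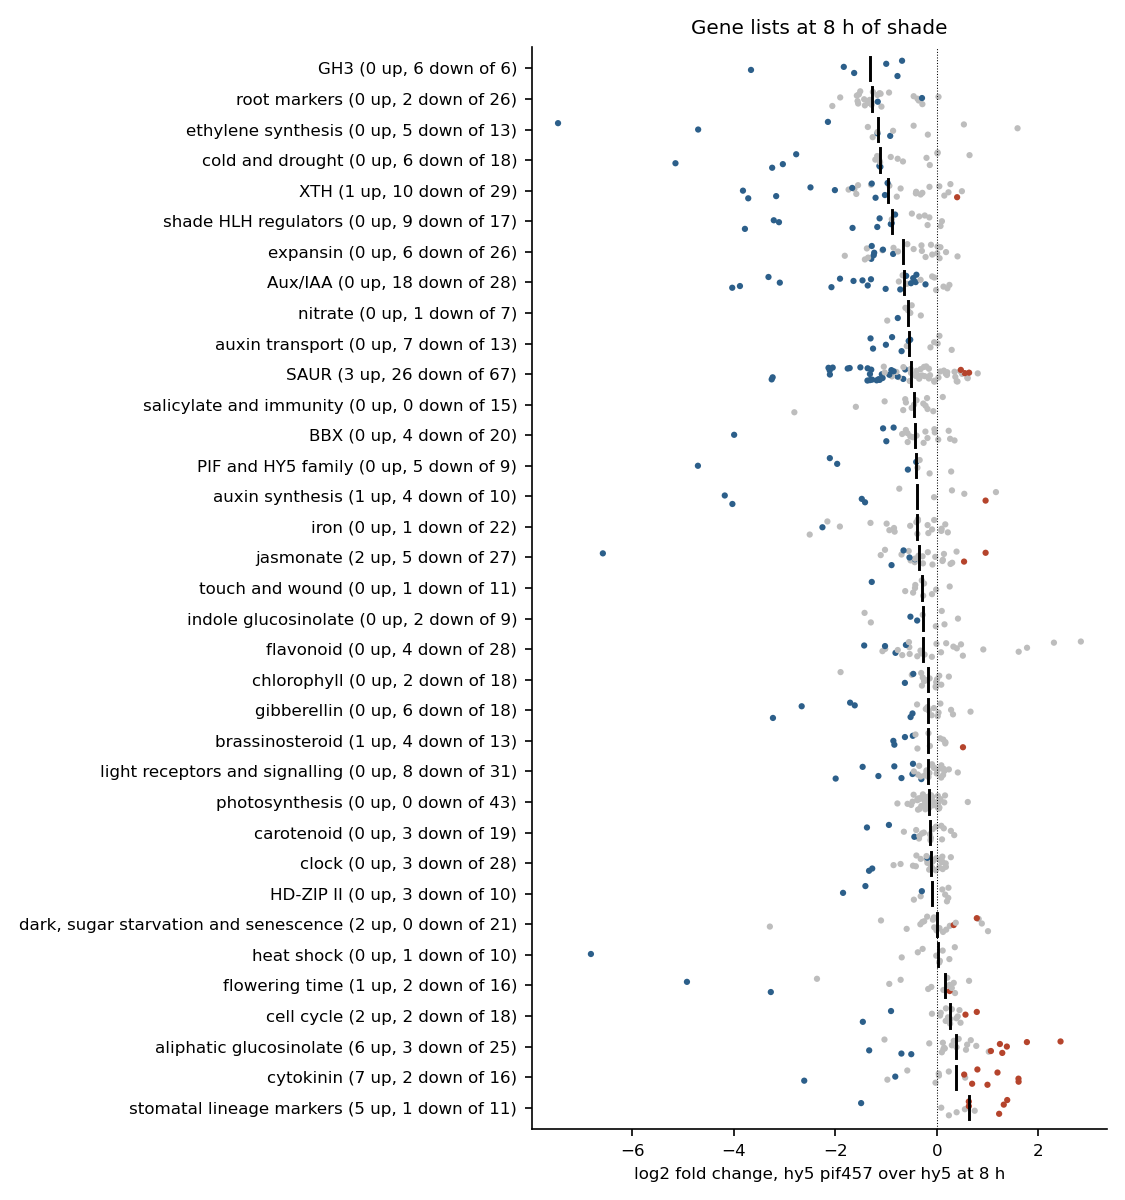
Log2 fold change of hy5 pif457 over hy5 at 8 h (x axis) for the tested members of the gene lists with at least 5 tested genes, sorted by list median (black bar), with genes called higher in red, called lower in blue and not called in grey. GH3, root marker, ethylene, cold and drought, XTH and shade helix-loop-helix lists have the lowest medians, left of 0. Cytokinin, aliphatic glucosinolate and stomatal lists lie to the right, and the HD-ZIP II median is near 0. The leftmost heat shock point is ATHSP22.0, which had no counts in hy5 pif457.

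At 0 h, 146 genes passed (0.677%), 73 higher and 73 lower in hy5 pif457 than in hy5 (0.339% each). That is fewer than the 5104 at 8 h. With the ribosomal RNA share as a covariate, 115 genes passed at 0 h and 79 at 8 h. The share did not overlap between the lines at either time, so that fit cannot separate it from genotype and does not rank the times. The same covariate raised the test of the difference between the times, given below without it, to 2496 genes. The 0 h count was 257 without hy5 replicate 3 and 65 without hy5 pif457 replicate 3. Of the 2617 genes lower at 8 h, 56 were lower at 0 h (2.14%), which is 76.7% of the 0 h list. Of the 2487 genes higher at 8 h, 38 were higher at 0 h (1.53%), which is 52.1% of that list, and 19 of these 38 were organelle genes. These 2 comparisons share no library. The test of the difference between them called 608 genes (2.82%), with 182 above (0.844%) and 426 below (1.98%) the 0 h difference. With RLE size factors the split was 270 above and 379 below. With the root marker score as a covariate 121 genes passed. Single libraries moved the count. It was 222, 177 and 1479 without hy5 0 h replicates 1, 2 and 3, and 165 without hy5 8 h replicate 2. It was 200 and 149 without hy5 pif457 0 h replicates 2 and 3, and 191 and 196 without hy5 pif457 8 h replicates 1 and 3. Calls held without each of the 12 libraries at 108 genes, 25 above and 83 below.

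ST2A averaged 1.87 ± 0.664 CPM in hy5 pif457 and 1.19 ± 0.626 CPM in hy5 at 0 h (SD, n = 3 each). At 1 h it averaged 2.302 ± 0.560 CPM in hy5 pif457 and 44.9 ± 17.9 CPM in hy5. At 8 h it averaged 2.26 ± 0.909 CPM in hy5 pif457 and 217 ± 109.8 CPM in hy5. Its difference at 8 h beyond that at 0 h was -7.21 ± 0.82 on the log2 scale (adjusted p = 1.1e-05). YUC8 averaged 1.90 ± 0.564 CPM in hy5 pif457 and 2.56 ± 0.926 CPM in hy5 at 0 h, and at 1 h 1.91 ± 0.308 CPM in hy5 pif457 and 31.9 ± 7.12 CPM in hy5 (difference at 8 h beyond 0 h -3.75 ± 0.51, adjusted p = 9.36e-05). At 1 h hy5 already stood above hy5 pif457 at YUC8, and its level in hy5 pif457 stayed near that of 0 h at all times. XTH15 (-4.205), XTH17 (-3.80), FAR1 (-3.47), GH3.3 (-3.36) and GA2OX6 (-3.25) also had differences that passed with and without each library. FAR1 averaged 10.1 ± 1.03 CPM in hy5 pif457 and 17.8 ± 0.811 CPM in hy5 at 1 h, so at 1 h both lines were near their 0 h levels of 9.89 ± 1.39 CPM in hy5 pif457 and 18.24 ± 3.22 CPM in hy5.

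MYB29 ran the other way. It averaged 17.64 ± 4.53 CPM in hy5 pif457 and 21.1 ± 6.24 CPM in hy5 at 0 h, and 15.4 ± 2.03 CPM in hy5 pif457 and 4.49 ± 0.533 CPM in hy5 at 8 h. Its difference beyond 0 h (2.03 ± 0.51, adjusted p = 0.0308) failed without hy5 replicate 1 (0.0594) or 2 (0.0968) of 0 h, hy5 replicate 2 of 8 h (0.095), hy5 pif457 replicate 2 (0.0706) or 3 (0.108) of 0 h, and hy5 pif457 replicate 1 (0.0628) or 3 (0.0838) of 8 h. TAA1 (1.18 ± 0.18, adjusted p = 0.000622) and POLAR (1.58 ± 0.30, adjusted p = 0.00492) held in every such fit. PIF7 had a positive value (1.69 ± 0.33, adjusted p = 0.00658), with 2.09 ± 1.16 CPM in hy5 pif457 and 29.0 ± 4.91 CPM in hy5 at 0 h, so that its deficit was larger before shade.

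**Figure D4:**
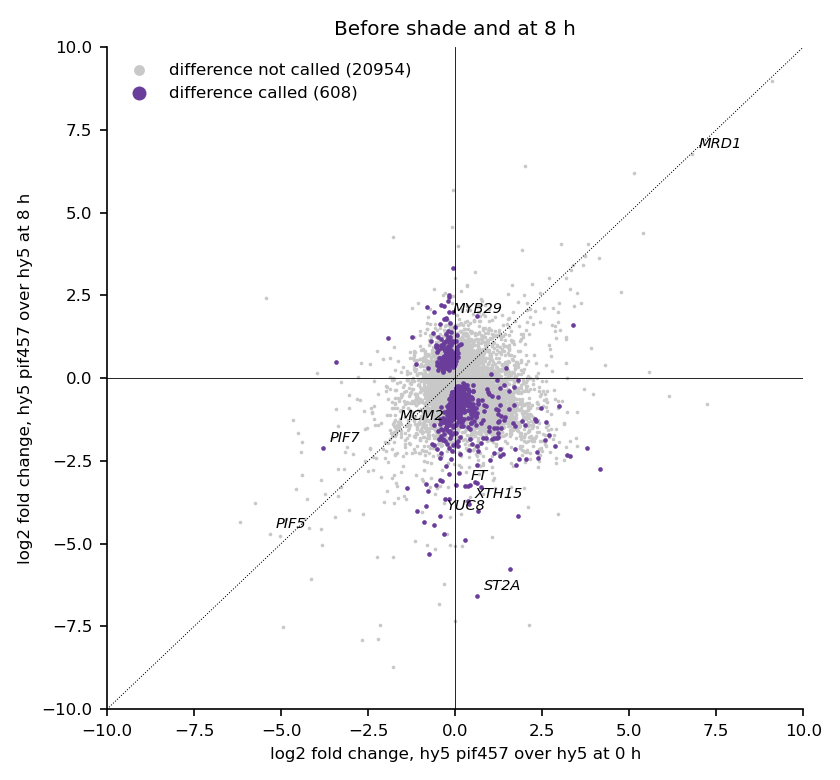
Log2 fold change of hy5 pif457 over hy5 at 0 h (x axis) and at 8 h (y axis) for 21562 tested genes, with the 608 genes whose differences differ between times in purple and a dotted line of equal values. ST2A, XTH15, YUC8 and FT lie near 0 on the x axis and far below 0 on the y axis, while PIF5, MCM2 and MRD1 lie near the dotted line.

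Part of the genes that were lower at both times were neighbours on a chromosome. In windows of 10 consecutive tested genes, those with at least 5 genes called in the same direction at 0 h and at 8 h formed 2 segments, both lower in hy5 pif457, and this search was made after the calls were seen. The segment on chromosome 1 ran from GGCT2;3 (AT1G44790) to AT1G45010, and all of its 14 tested genes fell at 8 h, 12 of them also at 0 h. Their median log2 fold change was -1.51 at 8 h and -1.64 at 0 h. The segment on chromosome 4 ran from SRFR1 (AT4G37460) to AT4G37553, and all of its 11 tested genes fell at 8 h, 9 of them also at 0 h, with medians of -1.60 and -1.59. Together they hold 21 of the 56 genes lower at both times, among them MCM2 (AT1G44900), a DNA replication helicase gene, SRFR1, a regulator of immunity, and RPT4B, a proteasome subunit gene. MCM2 had 26.3, 34.4 and 27.1 CPM in hy5 pif457, against 73.0, 67.0 and 101 CPM in hy5 (-1.46 ± 0.13, adjusted p = 9.86e-09). CYCB1;1 (AT4G37490, -0.90 ± 0.18) and KAI2 (AT4G37470, -1.33 ± 0.16), the karrikin receptor gene, also lie there. The summed level of the chromosome 1 segment was 354 to 382 CPM in hy5 pif457 at 8 h and 1027 to 1142 CPM in hy5. It was 1027 to 1183 CPM over the 9 hy5 libraries of all times, and 354 to 483 CPM over the other 27 libraries, those of WT and pif457 included. The chromosome 4 segment summed to 982 to 1264 CPM over the 9 hy5 libraries and to 350.0 to 438 CPM over the other 27. At both segments hy5 was thus the line that stood apart, and hy5 pif457 was near WT. The cause was not tested.

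The same mutations were compared with HY5 present, in pif457 against WT at 8 h, where 2431 genes passed (11.3%), 1424 higher (6.6%) and 1007 lower (4.67%). That count was 775 and 1052 without WT replicates 2 and 3, and 4391 and 857 without pif457 replicates 1 and 3. The majority direction among the calls turned in some fits. There were 46 genes higher and 232 lower with only the groups compared, and 150 higher and 461 lower with the root marker score as a covariate. Without WT replicate 2 there were 181 higher and 594 lower. Without WT replicate 3 there were 386 higher and 666 lower, and without pif457 replicate 3 226 higher and 631 lower. Other fits kept more higher than lower calls, such as DESeq2 (1785 and 1181), RLE size factors (1397 and 1010) and a replicate block (1153 and 949). Of the 583 calls kept without each of the 6 libraries, 110 were higher and 473 lower. At 8 h ribosomal RNA took 9.57% to 10.9% of counts in pif457 and 0.636% to 0.815% in WT. At that time the share cannot be told apart from genotype. In pif457 it was 0.548% to 1.306% at 0 h and 0.713% to 2.63% at 1 h, so it was not high in that genotype at all times. Why the share differed was not tested. The comparison of pif457 and WT shares no library with that of hy5 pif457 and hy5. Of the 2617 genes lower without HY5, 513 were lower with HY5 (19.6%), which is 50.9% of that list, and 49 were called in the opposite direction. Of the 2487 genes higher without HY5, 108 were higher with HY5 (4.34%), or 7.58% of a list of 1424 whose length rests on the settings above. Several shade genes, given as examples and not as typical of their lists, had close values in both backgrounds. HFR1 had -3.78 ± 0.33 without and -3.81 ± 0.32 with HY5, ATHB2 -1.85 ± 0.14 and -2.15 ± 0.14, FT -3.27 ± 0.40 and -3.14 ± 0.39, and CKX5 -2.61 ± 0.32 and -2.59 ± 0.32. Their differences between backgrounds were 0.03 ± 0.43 for HFR1, 0.31 ± 0.19 for ATHB2, -0.13 ± 0.53 for FT and -0.02 ± 0.43 for CKX5 (SE) and did not pass. TAA1 was higher in both, at 0.96 ± 0.13 without and 1.27 ± 0.13 with HY5. Other members of the shade lists differed. Of 17 helix-loop-helix regulators, 9 fell without HY5, and 14 fell and 1 rose with HY5. The test of the difference between backgrounds called 3 of them above and 1 below the difference with HY5. Of 6 GH3 genes it called 4 below and none above. How that test depends on single libraries is given next.

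The test of the difference between backgrounds called 2976 genes (13.8%), 932 above (4.32%) and 2044 below (9.48%) the difference with HY5. Root markers moved with it: 18 of 26 were among the lower calls, and the root marker score was 1.18, 3.00 and 4.199 in pif457 and 2.14, -0.99 and 0.87 in WT at 8 h. With the score as a covariate 25 genes passed, and in a fit of these 4 groups alone 22. The count was 53 without WT replicate 2, 88 and 5247 without pif457 replicates 3 and 1, 283 and 501 without hy5 pif457 replicates 1 and 3, and 1260 and 1982 without hy5 replicates 2 and 3. Calls at 51 genes held without each of the 12 libraries, and 23 of them also with the covariate. Of these 23, 17 lie in the 2 segments above. MRD1 was the largest, at 6.76 ± 0.45 without HY5 and -6.93 ± 0.44 with HY5 (difference 13.69 ± 0.62, adjusted p = 1.56e-14). It averaged 18.9 ± 1.03 CPM in hy5 pif457 and 0.166 ± 0.0759 CPM in hy5, and 0.212 ± 0.253 CPM in pif457 and 26.9 ± 2.51 CPM in WT, so it was high in hy5 pif457 and WT and low in the others. HEI10 (AT1G53490), the next identifier, a ligase gene of meiotic crossover, followed at 1.90 ± 0.19 without and -2.03 ± 0.19 with HY5, and shares 39.7% of its stretches. MRD1 was as different at 0 h (6.80 ± 0.46). LBD26 (-1.28 ± 0.30 and -4.02 ± 0.31), PIA1 (0.20 ± 0.07 and -0.51 ± 0.07) and the peroxidase gene PER9, which lies in the chromosome 1 segment, were others of the 23.

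**Figure D5:**
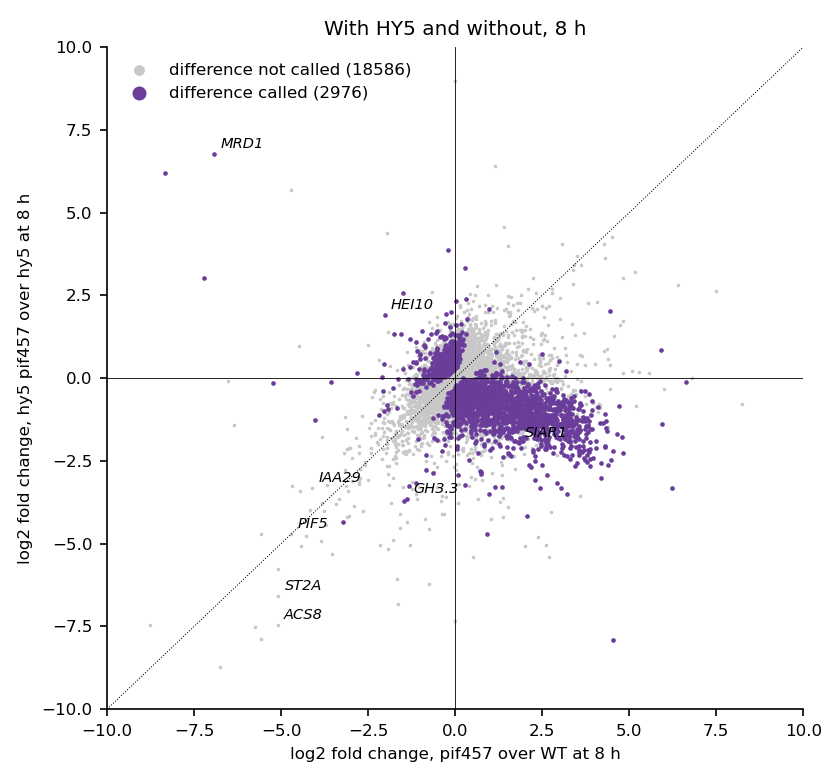
Log2 fold change of pif457 over WT (x axis) and of hy5 pif457 over hy5 (y axis) at 8 h for 21562 tested genes, with the 2976 genes whose differences differ between backgrounds in purple and a dotted line of equal values. PIF5, IAA29, ST2A and ACS8 lie below 0 on both axes, and MRD1 and HEI10 lie in the upper left, opposite in sign.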

How the data were processed

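RNA-seq libraries from whole seedlings were made with a stranded mRNA kit and read as 50 bp pairs, per the labels' protocols. The deposited table holds expected counts per gene as whole numbers, made by the authors with STAR 2.5.3a and RSEM 1.3.0 on TAIR10, per the submitters' processing notes. The strand setting of the counting was not given in the sources used here, nor was the annotation version. Of 32833 identifiers, 32548 matched the TAIR10.1 annotation, which gave symbols, gene order and the printed upstream sequences. Library totals were 30846115 to 58025421 counts.

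All 36 libraries entered 1 edgeR 4.0.16 quasi-likelihood fit (R 4.3.3) with 12 group terms, TMM scaling and a filter (minimum count 10, minimum total 15), which left 21562 tested genes and 24 residual degrees of freedom. P-values were adjusted by Benjamini-Hochberg over all tested genes, with a threshold of 0.05. Log2 fold changes carry the SE of the fit with n = 3 libraries a group. CPM values are counts scaled to the TMM-adjusted library size.

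Gene lists and rules were chosen with earlier results of these data known. Named were the mutated genes and their family, and up to 5 genes with the smallest adjusted p in each list. The 15 highest and 15 lowest by fold were named among stable genes with a symbol in the RefSeq annotation and no overlap. The log2 of their mean CPM had to be at least 2. Under the same limits on symbol and level, 8 genes called at 8 h were named at each end of each test of a difference. Genes of the chromosome segments, and LBD26, PIA1, PER9 and PER51, were named after their values were seen. Of 181 named genes, 20 have at least 10% of their 50-base stretches in common with another gene and 29 overlap an antisense gene. The fit was also run on simulated counts drawn independently for each gene and library. It recovered 37.3%, 82.1% and 93.9% of genes changed 1.5-fold, 2-fold and 4-fold, and called 7 of 21284 unchanged genes. The changed genes were drawn only from those above a floor on mean CPM over both groups at 8 h. The recovered shares thus do not cover tested genes of lower level. The simulated counts held no outlying library and no shift in the ribosomal RNA share, so they do not bear on those limits. Alternatives were RLE scaling, DESeq2 1.42.0, other filters, only the groups compared, a replicate block, a root marker covariate, removal of rRNA and organelle genes and leaving out each library. An rRNA share covariate and the search for neighbouring genes were added after the data were seen. One gene that the rule would name is not reported here.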

Additional observations from a re-analysis of the deposited data

Results flagged for a closer look

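Each of 2 tests of a difference between differences called genes. The difference between hy5 pif457 and hy5 at 8 h departed from that at 0 h at 608 genes. Genes named for either test are those that also passed at 8 h and have a symbol of their own in the RefSeq annotation. The log2 of their mean CPM over the 12 libraries is at least 2. Genes with only a synonym in that annotation, such as POLAR (1.58) in this test, were thus not ranked. The furthest below the 0 h difference, in log2 units, were ST2A (-7.21), XTH15 (-4.205), XTH17 (-3.80), YUC8 (-3.75), XTH19 (-3.48), FAR1 (-3.47), GH3.3 (-3.36) and GA2OX6 (-3.25). Of these, XTH19 lost its call without hy5 0 h replicate 2 (adjusted p = 0.0574), hy5 8 h replicate 2 (0.0598), hy5 pif457 0 h replicate 3 (0.056) or hy5 pif457 8 h replicate 3 (0.0557). The furthest above were DOT3 (2.101), MYB29 (2.03), PIF7 (1.69), CYCD6;1 (1.63), BASL (1.51), bHLH071 (1.39), MYB106 (1.39) and LSH3 (1.37), and of these PIF7 and bHLH071 passed without each of the 12 libraries.

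The difference between hy5 pif457 and hy5 at 8 h departed from that between pif457 and WT at 2976 genes. Under the same limits, which leave out PER9 (-5.569), PER51 (-2.9091) and LBD26 (2.738), the furthest below were LRX2 (-4.42), PME2 (-3.82), SIAR1 (-3.79), SULTR1;2 (-3.52), DOX1 (-3.02), MEE23 (-3.00), XTH19 (-2.90) and FMOGS-OX4 (-2.82). The furthest above were MRD1 (13.69), HEI10 (3.93), SCPL13 (1.33), CIL (1.23), BT5 (1.19), BASL (1.19), EPF2 (1.12) and ERD5 (1.11). SIAR1, MRD1 and HEI10 passed without each of the 12 libraries, and SIAR1 lies in the chromosome 1 segment where hy5 stood above all other lines. The other 13 lost their calls without WT 8 h replicate 2 (adjusted p between 0.0555 and 0.11) and without pif457 8 h replicate 3 (between 0.0654 and 0.147).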

How the results depend on the processing

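For hy5 pif457 against hy5 at 8 h, 5104 genes passed, against 79 with the rRNA share as a covariate, 3004 with the root marker score as a covariate and 1839 to 5643 without single libraries. For the difference between 8 h and 0 h, the count of 608 was 1470 with DESeq2, 399 without a filter, 2039 with only the groups compared, 2496 with the rRNA covariate, 121 with the root covariate and 149 to 1479 without single libraries. RLE size factors put 41.6% of its calls above 0, against 29.9%. For the difference between backgrounds, the count of 2976 was 22 with only the groups compared, 5778 with the rRNA covariate, 25 with the root covariate and 53 to 5247 without single libraries. At 0 h, 146 was 321 with DESeq2 and 65 to 257 without single libraries. For pif457 against WT, 2431 was 278 with only the groups compared, 611 with the root covariate and 775 to 4391 without single libraries. Calls in the gene lists numbered 11 with the rRNA covariate and 135 to 190 without single libraries, and the share of lower genes with CACGTG was 6.29% to 8.50%.

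Deviations of same-numbered libraries from their group means correlated weakly at 8 h (0.118, 0.0714 and -0.0628). With 3 libraries a group this cannot show whether the numbers mark a shared batch. With a replicate block, 4834 genes passed at 8 h, 543 between times, 2662 between backgrounds, 133 at 0 h and 2102 for pif457 against WT. For the gene lists and motif shares the block gave 187 calls and 7.5%.

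Of 157 called named genes, 141 kept the call with the root covariate and 120 without hy5 replicate 2. DESeq2 kept 157 and the rRNA covariate 15. Many of these genes were named because their calls were stable or had the smallest adjusted p in a list. Their kept share is thus partly built in and does not stand for other calls. Of all 5104 calls, 2908 were kept with the root covariate and 1761 without hy5 replicate 2. DESeq2 kept 5020 of them and the rRNA covariate 78. Signs reversed with the rRNA covariate at GSTF11 (-0.0643), FP3 (-0.49), CDC20.2 (-0.19), CDC20.1 (-0.0179), CPD (0.058), ARR16 (-0.21), ACO4 (0.0697), PAO (0.10), ZDS (0.20), BBX21 (0.25), SOT16 (0.0517), CYCD3;1 (-0.48), ESB1 (0.60), PME2 (1.76) and IBH1 (0.0299), and without hy5 8 h replicate 2 at LHY (0.29, with -1.76 to 0.29 over the libraries left out). The cause was not tested. Depth limits low genes: 3 counts are 0.0812 to 0.0973 CPM in hy5 pif457.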
